A study of Homo sapiens with 6 samples.

Results

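The genes of the G1 restriction point were followed in MDA-MB-231 cells, an established human triple-negative breast cancer (TNBC) line, after knockdown of YAP1. The set held 10 genes of the 60612 gene identifiers measured, namely the D-type cyclins CCND1, CCND2 and CCND3, the E-type cyclins CCNE1 and CCNE2, the kinases CDK4 and CDK6, the inhibitors CDKN1A and CDKN1B, and the pocket protein RB1. They were chosen by symbol, with results of the same comparison in view, so their differences between the groups are given as a description. No p-value is printed for any of them, and where the number of them past a threshold is given, it stands beside the share of all genes or rows and nothing is read from it. RNA was taken on day 3 from untreated cells that stably expressed a control hairpin (Sh-NC, genotype given as WT) or a hairpin that targets YAP1 (Sh-YAP1, genotype given as YAP1 knockdown), with 3 libraries in each group. The event from which day 3 is counted and the number of hairpins or clones are not given in the sources used here. The study states in general terms that its data came from independent experiments, but the labels do not say whether the libraries of a group were separate cultures, and if they were not, the spread between them is technical. The values are FPKM, fragments scaled by transcript length and by the mapped fragments of the library, 1 value for each transcript row, and a gene value is the sum of its rows.

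Passage from G1 into S phase is driven by D-type cyclins, which bind CDK4 or CDK6 and phosphorylate RB1, and then by E-type cyclins, which bind CDK2. Phosphorylated RB1 releases E2F transcription factors, which switch on genes of DNA synthesis, while p21 (CDKN1A) and p27 (CDKN1B) bind and inhibit cyclin-CDK2 complexes. YAP1 is a transcriptional coactivator that reaches DNA mainly through TEAD factors and is known to promote proliferation in many epithelial cancers.

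YAP1 itself was 28.1, 26.2 and 22.9 FPKM in Sh-NC against 3.35, 2.67 and 2.58 FPKM in Sh-YAP1 (values are given in replicate order throughout), a fall of the targeted gene with no overlap between the groups (log2 fold change -2.79, SE 0.12, adjusted p = 0.0018, limma with Benjamini-Hochberg adjustment). All log2 fold changes are Sh-YAP1 minus Sh-NC on the log2(FPKM + 1) scale, which understates the change of low genes. The summed FPKM of a library ranged from 467493 to 475116, and 13037 to 13219 genes reached 1 FPKM. The depth of the libraries is unknown, so errors come only from the spread between libraries. Among the line's markers, VIM, a mesenchymal filament, lay between 1645 and 2303 FPKM, KRT18 of simple epithelium between 99.9 and 126 FPKM, and the hormone receptors ESR1 and PGR at no more than 0.07 and 0.01 FPKM. The third receptor of the triple-negative definition, ERBB2, was expressed at 14.3 to 18.1 FPKM. KRT8 lay between 126 and 164 FPKM, CD44 between 114 and 147 FPKM, and EPCAM was low at 2.43 to 3.27 FPKM. Of 5 blood and vessel markers, the leukocyte gene PTPRC and the endothelial gene CDH5 did not pass 0.04 FPKM in any library, CD3E was at 0, PECAM1 lay between 0.76 and 1.70 FPKM, and CD68, a lysosomal gene that tumour cells also express, between 56.2 and 80.2 FPKM. In bulk RNA, fewer cells with a transcript and less RNA per cell cannot be told apart.

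Across the 10 genes, 7 had a lower and 3 a higher mean under Sh-YAP1, with a median log2 fold change of -0.16 against -0.00 over the 14770 genes tested. CDK4 was at 62.7% of its Sh-NC mean and CDK6 at 1.64 times its Sh-NC mean. CCND1 and CCND3 were also lower, while CCNE1, CCNE2 and CDKN1A overlapped between the groups. In the fit across all genes, 3 of the 10 were past an adjusted p of 0.05 (CCND1 and CDK4 lower, CDK6 higher), beside 3.38% of all genes tested, 1.62% lower and 1.75% higher (limma, Benjamini-Hochberg). With any 1 library left out CCND1 and CDK6 no longer passed, and CDK4 did not pass without Sh-NC replicate 1 or without Sh-YAP1 replicate 2. The groups did not overlap for 7 of the 10, 5 lower and 2 higher, beside 29.4% of all genes, 14.7% lower and 14.6% higher. These counts describe the choice of genes and nothing is read from them.

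**Figure D1:**
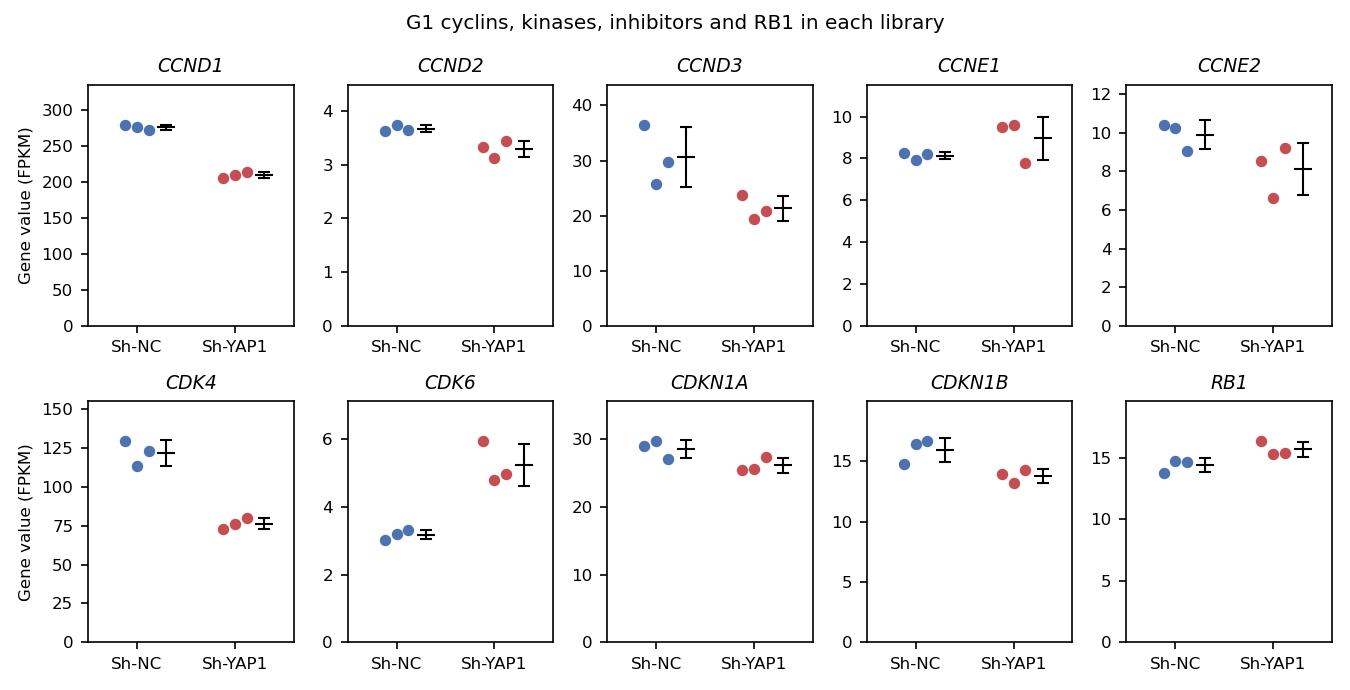
Gene values in FPKM (y axis, from 0, with its own scale for each gene) of the 10 genes in the Sh-NC and Sh-YAP1 libraries; points are single libraries and bars are the mean ± SD (n = 3). CDK4 and CCND1 are lower in all Sh-YAP1 libraries, CDK6 is higher, and CCNE1, CCNE2 and CDKN1A overlap.

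Of the D-type cyclins, the sensors of growth signals in G1, CCND1 was by far the most abundant. CCND1 (ENSG00000110092, chr11:69641087-69654474 of GRCh38, plus strand) was 279, 276 and 272 FPKM in Sh-NC against 205, 209 and 213 FPKM in Sh-YAP1. All Sh-YAP1 libraries were below all Sh-NC libraries, and the means were 276 ± 3.53 and 209 ± 4.24 FPKM (SD, n = 3), a log2 fold change of -0.40 (SE 0.06). CCND3, the D-type cyclin found in most tissues, was 36.5, 25.7 and 29.7 FPKM in Sh-NC against 23.7, 19.3 and 20.9 FPKM in Sh-YAP1. Its groups did not overlap either, although Sh-NC replicate 2 lay only slightly above Sh-YAP1 replicate 1, and the log2 fold change was -0.49 (SE 0.14). CCND2 was low, at 3.62, 3.74 and 3.65 FPKM in Sh-NC against 3.32, 3.13 and 3.43 FPKM in Sh-YAP1, with a log2 fold change of -0.12 (SE 0.08). Its groups did not overlap, but the sign turned to 0.28 when rows above 1 FPKM in a single library were left out. That setting removed CCND2 row 2, which held 2.63 of the 3.65 FPKM of Sh-NC replicate 3 and was 0 elsewhere.

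The D-type cyclins together were 319, 305 and 306 FPKM in Sh-NC against 232, 232 and 238 FPKM in Sh-YAP1. CCND1 held 89.0% ± 1.47 of the sum in Sh-NC and 89.5% ± 1.02 in Sh-YAP1 (SD, n = 3), which overlapped. The small share of CCND2 did not overlap, at 1.18% ± 0.0467 and 1.41% ± 0.0497. The LTO1 gene shares 1399 bases with CCND1 on the opposite strand, and its groups overlapped (11.5 ± 0.72 and 8.73 ± 2.6 FPKM, SD, n = 3). Whether reads were counted by strand is not given in the sources used here.

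The E-type cyclins, which act with CDK2 at the start of S phase, showed no separation of the groups. CCNE1 was 8.26, 7.94 and 8.20 FPKM in Sh-NC against 9.52, 9.61 and 7.79 FPKM in Sh-YAP1 (log2 fold change 0.12, SE 0.10, from 0.07 without Sh-YAP1 replicate 2 and 0.08 without Sh-YAP1 replicate 1 to 0.21 without Sh-YAP1 replicate 3). Sh-YAP1 replicate 3 was the lowest of the 6 libraries and the other Sh-YAP1 libraries were the highest. CCNE2 was 10.4, 10.2 and 9.04 FPKM in Sh-NC against 8.54, 6.60 and 9.21 FPKM in Sh-YAP1, a log2 fold change of -0.27 (SE 0.13). It was -0.14 without Sh-YAP1 replicate 2 and -0.12 without rows above 1 FPKM in a single library. Sh-YAP1 replicate 3 exceeded Sh-NC replicate 3, so the groups overlapped. The sum of both was 18 ± 0.727 FPKM in Sh-NC against 17.1 ± 0.928 FPKM in Sh-YAP1 (SD, n = 3).

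CDK4, the more abundant catalytic partner of the D-type cyclins, had the largest log2 fold change of the 10 genes in absolute size with a pseudocount of 1, whereas CDK6 led with pseudocounts of 0.1 and 0.01 (0.69 and 0.71, against -0.67 for CDK4) and CCND1 differed most in FPKM. CDK4 (ENSG00000135446, chr12:57747727-57756013 of GRCh38, minus strand) was 129, 113 and 123 FPKM in Sh-NC against 73.0, 75.8 and 79.9 FPKM in Sh-YAP1. The lowest Sh-NC library was well above the highest Sh-YAP1 library, and the means were 122 ± 8.13 and 76.2 ± 3.5 FPKM (SD, n = 3), a log2 fold change of -0.67 (SE 0.08). CDK6, the close relative that binds the same cyclins, was 3.03, 3.19 and 3.32 FPKM in Sh-NC against 5.93, 4.79 and 4.95 FPKM in Sh-YAP1. It was higher in all Sh-YAP1 libraries, with means of 3.18 ± 0.145 and 5.22 ± 0.617 FPKM (SD, n = 3) and a log2 fold change of 0.57 (SE 0.10).

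Over all rows and in FPKM, the higher CDK6 was small beside the lower CDK4. The sum of both kinases was 132, 116 and 126 FPKM in Sh-NC against 78.9, 80.6 and 84.9 FPKM in Sh-YAP1. CDK6 made up 2.56% ± 0.237 of that sum in Sh-NC and 6.43% ± 0.941 in Sh-YAP1 (SD, n = 3). The ratio of CDK4 to CDK6 was 42.6, 35.4 and 36.9 in Sh-NC and 12.3, 15.8 and 16.2 in Sh-YAP1, so it did not overlap. Without the CDK4 transcript rows 2 and 3, described further on, the sum turned to 62.1 ± 5.19 FPKM in Sh-NC against 79.8 ± 3.56 FPKM in Sh-YAP1 (SD, n = 3). On that basis the CDK6 share was 5.15% ± 0.605 and 6.57% ± 0.977 and the ratio of CDK4 to CDK6 18.6 ± 2.16 and 14.4 ± 2.12, both in the same direction as over all rows but closer.

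The 250 bases before the RefSeq start site of CDK4 are shown because CDK4 was compared row by row, and the matching stretch of a CCND3 start because it held the only TEAD word found before any of these genes. The table of RefSeq promoters on GRCh38.p14 had entries for 7 of the 10 genes, 10 entries in all, and none for CCND1, CCND2 and CCNE2. Capitals mark the words searched on both strands, which were the TEAD word GGAATG, the E-box CACGTG and the E2F words TTTCCCGC and TTTGGCGC.
CDK4 (chr12:57752311-57752560, minus strand): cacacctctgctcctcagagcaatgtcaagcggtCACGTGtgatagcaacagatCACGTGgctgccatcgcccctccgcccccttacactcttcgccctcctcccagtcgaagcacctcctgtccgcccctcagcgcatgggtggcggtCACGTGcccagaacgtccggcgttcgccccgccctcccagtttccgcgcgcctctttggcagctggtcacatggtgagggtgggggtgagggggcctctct
CCND3 (chr6:41941809-41942058, minus strand): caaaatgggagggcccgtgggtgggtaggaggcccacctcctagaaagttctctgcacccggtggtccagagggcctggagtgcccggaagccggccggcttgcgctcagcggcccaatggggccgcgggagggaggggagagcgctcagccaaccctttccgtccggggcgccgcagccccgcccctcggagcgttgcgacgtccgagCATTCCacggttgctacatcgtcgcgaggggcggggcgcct
The CDK4 stretch held 3 E-boxes, at 216, 196 and 101 bases before the start, whereas 6.34% of 35116 promoter entries of the same length held at least 1 and 0.0797% held 3 or more. The CCND3 stretch held 1 TEAD word, read on the opposite strand as CATTCC at 41 bases before the start, and 11.9% of all entries held one. No entry of these genes held an E2F word, which 1.93% of all entries did. The RB1 entry starts 172724 bases inside its GENCODE gene, so the bases before the 5′ end of RB1 were not searched. The CDK4 start used here lies 3703 bases inside the GENCODE gene from its 5′ end and the CCND3 start 108549 bases inside. A match describes the letters and not a bound site.

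The lower CDK4 sum was carried by few of its transcript rows. The gene had 15 rows, of which 12 were above 0 in some library, and they are numbered here by their mean over the 6 libraries, since the values carry no transcript identifier. GENCODE 29 lists 15 CDK4 transcripts, 10 of them protein coding. Row 1 was 50.3, 54.5 and 45.1 FPKM in Sh-NC against 53.8, 50.8 and 62.9 FPKM in Sh-YAP1, so the most abundant row overlapped. Row 2 was 38.2, 28.8 and 40.02 FPKM in Sh-NC against 1.82, 2.18 and 1.09 FPKM in Sh-YAP1. Row 3 was 31.6, 20.2 and 29.1 FPKM in Sh-NC, whereas each Sh-YAP1 library listed it at 0. Row 4 went the other way, at 1.15, 1.13 and 2.48 FPKM in Sh-NC against 9.52, 15.2 and 11.2 FPKM in Sh-YAP1.

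**Figure D2:**
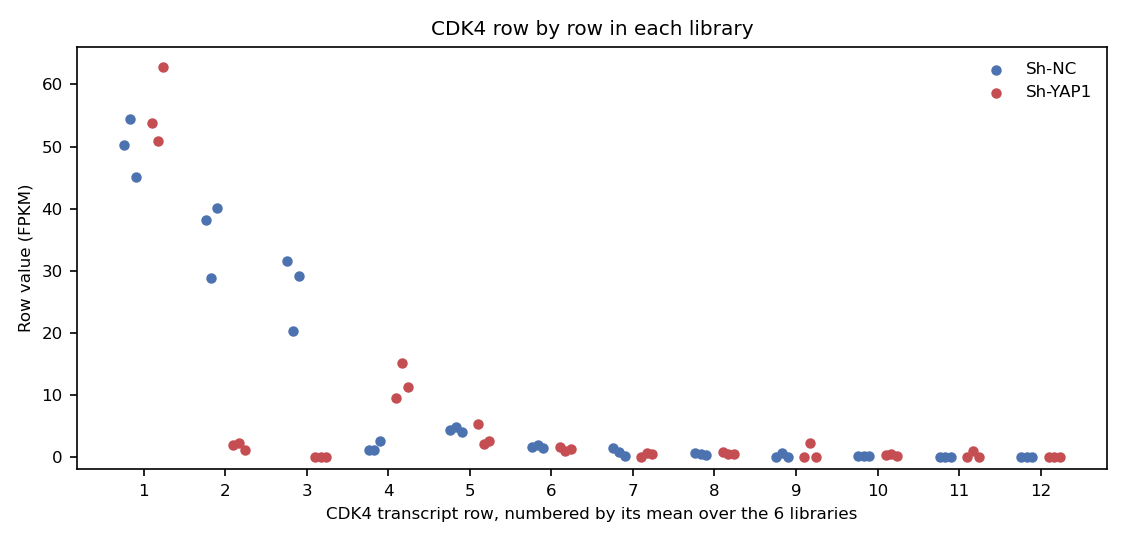
CDK4 transcript rows, numbered by mean level (x axis), with the row value in FPKM of each library (y axis, linear); points are single libraries of Sh-NC and Sh-YAP1. Row 1 overlaps between the groups, rows 2 and 3 are near or at 0 in Sh-YAP1, and row 4 is higher in Sh-YAP1.

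Rows 2 and 3 together held 51.5% of CDK4 in Sh-NC and 2.23% in Sh-YAP1, or 62.7 ± 11.8 and 1.70 ± 0.555 FPKM (SD, n = 3). Without both rows the rest of CDK4 was 59.3, 64.0 and 53.5 FPKM in Sh-NC against 71.2, 73.6 and 78.8 FPKM in Sh-YAP1, which reversed the log2 fold change to 0.34. With 1 row left out the gene stayed lower throughout, at a log2 fold change of -0.20 without row 2, -0.31 without row 3, -0.89 without row 4 and -1.77 without row 1. The choice of these rows was made after their values were seen.

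FPKM of rows of 1 gene are estimates that share reads, and how they were divided is not given in the sources used here. TSPAN31 and MARCH9 overlap CDK4 on the opposite strand by 2485 and 916 bases, and they were 3.61 ± 0.43 and 6.36 ± 0.51 FPKM in Sh-NC against 4.06 ± 0.59 and 4.82 ± 0.76 FPKM in Sh-YAP1 (SD, n = 3). Their part in the CDK4 values was not tested.

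The other genes differed in how evenly their rows behaved. The 10 genes had 93 rows, of which 51 were tested, and the groups did not overlap for 7 rows that were lower and 6 that were higher, beside 13.1% of all rows tested, 6.80% lower and 6.34% higher. Past an adjusted p of 0.05 were 2 of the 51, both of CDK4, beside 0.0515% of all 77655 rows tested (limma, Benjamini-Hochberg), and since CDK4 was taken row by row with this comparison known, nothing is read from that count. CCND1, CDKN1B and RB1 were almost a single row, with shares of 96.0% to 98.6%, 95.7% to 100% and 98.3% to 99.3% of the gene over the 6 libraries. In 5 genes (CCND2, CCND3, CCNE1, CCNE2 and CDKN1A) the leading row was not the same in every library. CCNE2 row 1 was 9.0, 0 and 0 FPKM in Sh-NC against 6.76, 5.34 and 7.98 FPKM in Sh-YAP1, while row 2 was 0.06, 7.24 and 6.45 FPKM in Sh-NC against at most 0.42 FPKM in Sh-YAP1. Sh-NC replicate 1 thus had the row makeup of the Sh-YAP1 libraries, and the CCNE2 sum moved far less than its rows. In CDKN1A, Sh-YAP1 replicate 2 alone split its value between rows 1 and 2, at 12.3 and 12.6 FPKM.

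**Figure D3:**
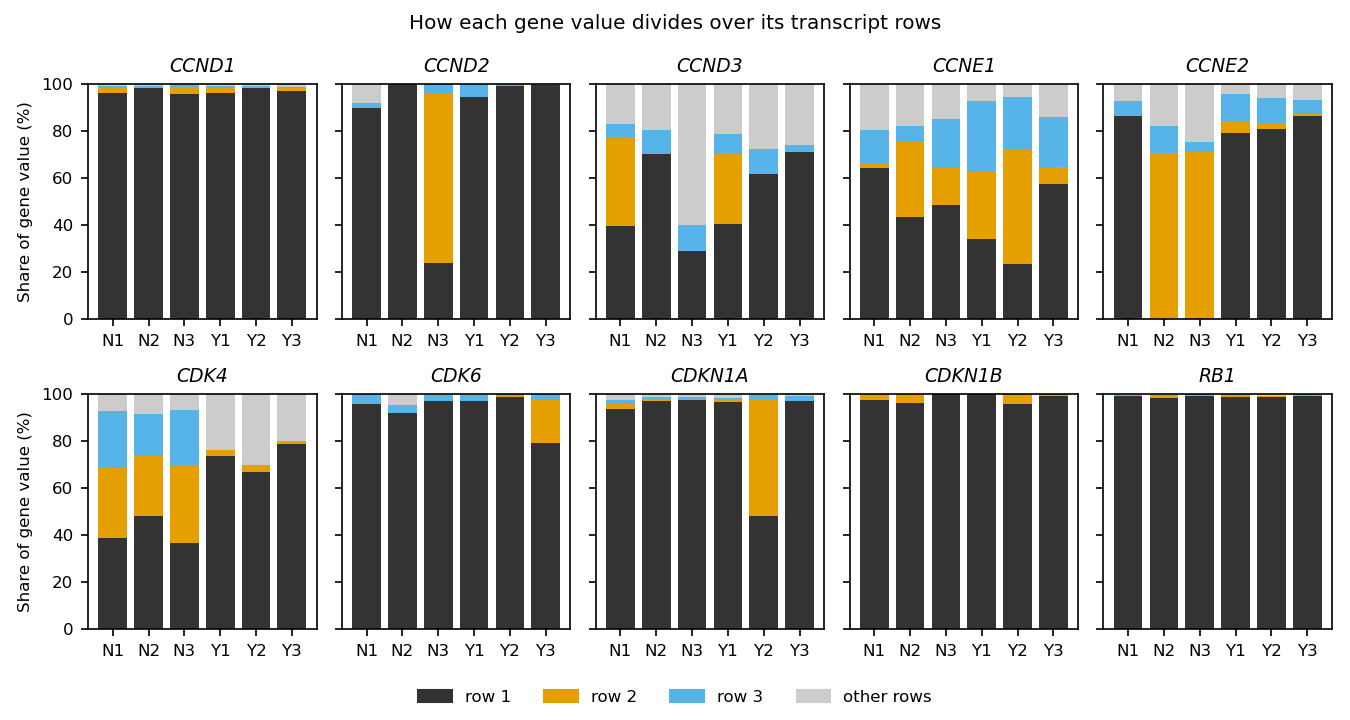
Share of each gene's FPKM held by its transcript rows, in percent (y axis, 0 to 100), for each library (N1 to N3 are Sh-NC replicates 1 to 3, Y1 to Y3 are Sh-YAP1 replicates 1 to 3); colours are the leading rows by mean level and grey is the rest. CCND1, CDKN1B and RB1 rest on 1 row in every library, CDK4 is almost without rows 2 and 3 in Sh-YAP1, and CCNE2 changes its leading row within Sh-NC.

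The CIP/KIP inhibitors were slightly lower or overlapped. CDKN1A, the damage-inducible inhibitor p21, was 28.9, 29.7 and 27.1 FPKM in Sh-NC against 25.4, 25.5 and 27.4 FPKM in Sh-YAP1, a log2 fold change of -0.13 (SE 0.07), which was -0.43 without rows above 1 FPKM in a single library. That setting removed CDKN1A row 2, at 12.6 FPKM in Sh-YAP1 replicate 2 and at most 0.51 FPKM elsewhere. Over all rows, Sh-YAP1 replicate 3 lay just above Sh-NC replicate 3. CDKN1B, the inhibitor p27 of quiescent cells, was 14.8, 16.4 and 16.7 FPKM in Sh-NC against 13.9, 13.2 and 14.3 FPKM in Sh-YAP1. Its groups did not overlap, with a log2 fold change of -0.19 (SE 0.08). RB1, the pocket protein that both kinases phosphorylate, was 13.7, 14.7 and 14.7 FPKM in Sh-NC against 16.3, 15.3 and 15.3 FPKM in Sh-YAP1. It was higher in all Sh-YAP1 libraries by a log2 fold change of 0.12 (SE 0.07).

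Set against their partners over all rows, the inhibitors and D-type cyclins were in higher proportion to the kinases in Sh-YAP1, and without CDK4 rows 2 and 3 both proportions turned. The ratio of CDKN1A plus CDKN1B to CDK4 plus CDK6 was 0.331, 0.396 and 0.347 in Sh-NC and 0.499, 0.480 and 0.491 in Sh-YAP1. The ratio of D-type cyclins to CDK4 plus CDK6 was 2.42, 2.63 and 2.43 in Sh-NC and 2.94, 2.88 and 2.80 in Sh-YAP1. Without these rows the inhibitor ratio was 0.719 ± 0.0451 in Sh-NC and 0.5003 ± 0.00875 in Sh-YAP1, and the cyclin ratio 5.02 ± 0.428 and 2.93 ± 0.0883 (SD, n = 3). Neither ratio overlapped between the groups either way, and all are ratios of RNA per length, not of protein.

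In order of level, Sh-NC ran from CCND1 and CDK4 through CCND3, CDKN1A, CDKN1B, RB1, CCNE2, CCNE1 and CCND2 to CDK6, and neighbours overlapped only for CCND3 and CDKN1A. In Sh-YAP1 the order was CCND1, CDK4, CDKN1A, CCND3, RB1, CDKN1B, CCNE1, CCNE2, CDK6 and CCND2, and only CCNE1 and CCNE2 overlapped. RB1 and CDKN1B thus changed places, as did CDK6 and CCND2. The lowest CDKN1B library of Sh-NC, at 14.77 FPKM, was barely above the highest for RB1, at 14.72 FPKM. CCND3 and CDKN1A also changed places, with overlap in Sh-NC, and so did CCNE2 and CCNE1, with overlap in Sh-YAP1.

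The genes whose pattern over the 6 libraries was nearest to that of CDK4, by Euclidean distance of centred log2(FPKM + 1) values among 13099 genes, were RFX5, CARS2 and FSTL1, at distances of 0.106, 0.126 and 0.134. RFX5, a factor of MHC class II promoters, averaged 49.3 ± 2.53 FPKM in Sh-NC against 30.7 ± 1.97 FPKM in Sh-YAP1 (SD, n = 3). CARS2, the mitochondrial cysteinyl-tRNA synthetase, averaged 17.8 ± 1.17 and 10.5 ± 1.05 FPKM, and FSTL1, a secreted glycoprotein, 49.1 ± 1.27 and 31.0 ± 1.9 FPKM. The 3 genes were picked by these same values, matched to CDK4 over all its rows, so their lower level in Sh-YAP1 follows from the choice.

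Of 35 other genes of the G1/S machinery, 33 were tested, 16 lower and 17 higher, with a median log2 fold change of 0.02. Only 2 were past an adjusted p of 0.05, both repressor-type E2F factors that were lower, beside 1.62% of all genes lower (limma, Benjamini-Hochberg). E2F4, which acts with pocket proteins in resting cells, was 47.2, 49.0 and 49.7 FPKM in Sh-NC against 36.9, 38.4 and 38.7 FPKM in Sh-YAP1. It fell by a log2 fold change of -0.35 (SE 0.06, limma, Benjamini-Hochberg adjusted p = 0.0389). E2F5 was 5.25, 5.51 and 5.54 FPKM in Sh-NC against 3.70, 3.35 and 3.30 FPKM in Sh-YAP1, and fell by a log2 fold change of -0.53 (SE 0.08, limma, Benjamini-Hochberg adjusted p = 0.0274). With 1 library left out the log2 fold change stayed between -0.37 and -0.33 for E2F4 and between -0.57 and -0.51 for E2F5. Neither call held there, and over all alternatives the adjusted p ran from 0.0352 to 0.153 for E2F4 and from 0.0237 to 0.147 for E2F5, highest with the replicate block (limma, Benjamini-Hochberg).

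The pocket protein RBL1 (p107) was 8.61 ± 0.5 FPKM in Sh-NC against 11.3 ± 0.663 FPKM in Sh-YAP1 (SD, n = 3), short of the threshold (limma, Benjamini-Hochberg adjusted p = 0.0728). CDK2, the partner of the E-type cyclins, was 28.5, 71.4 and 24.7 FPKM in Sh-NC against 14.8, 20.7 and 22.3 FPKM in Sh-YAP1, with Sh-NC replicate 2 far above the rest. Its log2 fold change of -0.93 (SE 0.39) did not pass (limma, Benjamini-Hochberg adjusted p = 0.235), and it was -0.46 without Sh-NC replicate 2 and -0.19 without rows above 1 FPKM in a single library. Among 12 genes of cyclin and inhibitor turnover 0 passed, beside 3.38% of all genes, and 4 were at an unadjusted p under 0.05, beside 21.9% of all genes (limma). Of these 4, 1 was lower and 3 were higher. The lower one was CKS1B, the cofactor of p27 degradation, at 199.7 ± 6.58 and 159.7 ± 7.95 FPKM (SD, n = 3; limma, Benjamini-Hochberg adjusted p = 0.0556, and between 0.0478 with median centring and 0.162 over the alternatives). The higher ones included FBXO4 at 2.89 ± 0.181 and 4.29 ± 0.574 FPKM (log2 fold change 0.44, SE 0.11, limma, Benjamini-Hochberg adjusted p = 0.084). FBXO4 was at 0.28 (SE 0.2) without rows above 1 FPKM in a single library. The others were FBXW7 (0.30, SE 0.12, adjusted p = 0.214) and AMBRA1 (0.24, SE 0.08, adjusted p = 0.169, both limma, Benjamini-Hochberg). All 3 are genes of ubiquitin ligases that act on G1 cyclins, but of the 12 genes 6 were lower and 6 higher. Other ligase genes of the list went both ways, with FBXO31 (-0.13) and RBX1 (-0.28) lower and SKP2 (0.20) higher. Among 6 genes of CDK2 and CDK activation 0 passed, 1 at an unadjusted p under 0.05 (limma).

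Of the other inhibitors, 3 of 5 were tested and 0 passed, with 0 at an unadjusted p under 0.05 (limma). CDKN1C (p57) averaged 4.83 ± 1.32 FPKM in Sh-NC against 4.797 ± 0.0493 FPKM in Sh-YAP1. CDKN2C (p18) averaged 38.8 ± 5.25 FPKM in Sh-NC against 40.9 ± 1.79 FPKM in Sh-YAP1, and CDKN2D (p19) 24.4 ± 2.95 and 20.2 ± 4.2 FPKM (SD, n = 3). CDKN2A and CDKN2B, the INK4 inhibitors p16 and p15, were not tested, since no library passed 0.29 FPKM for CDKN2A and 0.12 FPKM for CDKN2B.

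**Figure D4:**
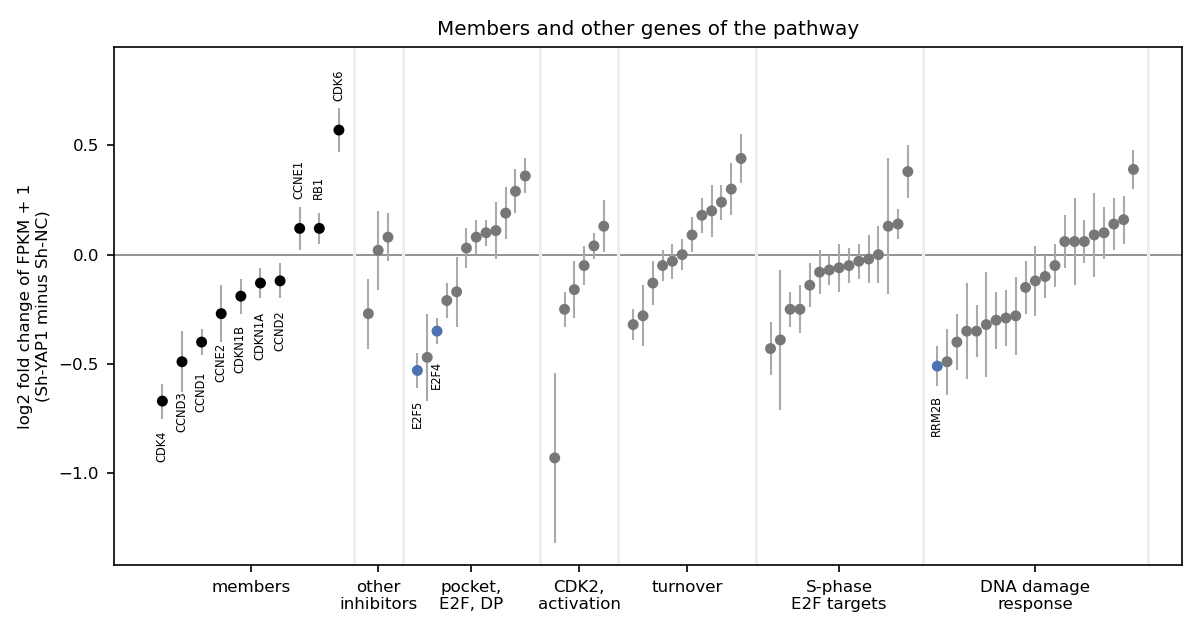
Log2 fold change of FPKM + 1, Sh-YAP1 minus Sh-NC (y axis), of the 10 genes (black, described only) and of the other pathway genes tested, by list (x axis); points are single genes, lines are ± SE, and blue marks genes lower at an adjusted p under 0.05 by limma. E2F5, E2F4 and RRM2B are the blue points, and the remaining grey points did not pass.

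Downstream of RB1, 15 S-phase genes under E2F control were tested and 0 passed, with 3 at an unadjusted p under 0.05, beside 21.9% of all genes (limma). Of the 15 genes 12 were lower and 3 higher, with a median log2 fold change of -0.06. The thymidine kinase TK1 was 86.4, 91.6 and 82.7 FPKM in Sh-NC against 53.6, 71.4 and 68.9 FPKM in Sh-YAP1, without overlap but short of the threshold (limma, Benjamini-Hochberg adjusted p = 0.104). RRM2, a ribonucleotide reductase subunit, was also at an unadjusted p under 0.05, with a log2 fold change of -0.25 (limma, Benjamini-Hochberg adjusted p = 0.127). Of 23 genes of the DNA damage response, which also induces CDKN1A, 21 were tested, 13 lower and 8 higher with a median of -0.12, and 5 were at an unadjusted p under 0.05, 4 lower and 1 higher (limma). The only one past the threshold was RRM2B, a damage-induced ribonucleotide reductase subunit, beside 1.62% of all genes called lower. It fell from 6.0 ± 0.427 to 3.91 ± 0.187 FPKM (SD, n = 3; log2 fold change -0.51, SE 0.09, limma, Benjamini-Hochberg adjusted p = 0.0349). RRM2B did not pass when any 1 library was left out, with a log2 fold change between -0.56 and -0.48. MDM2, a ubiquitin ligase, averaged 6.01 ± 1.28 and 3.93 ± 0.111 FPKM (limma, Benjamini-Hochberg adjusted p = 0.122). XPC, a DNA damage sensor of nucleotide excision repair, was the higher one, at 6.24 ± 0.382 and 8.46 ± 0.567 FPKM without overlap (SD, n = 3; log2 fold change 0.39, SE 0.09, limma, Benjamini-Hochberg adjusted p = 0.068). FBXW7, AMBRA1, FBXO31, RBX1, SKP2, RRM2 and XPC were named after their values were seen.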

How the data were processed

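RNA-sequencing of 6 MDA-MB-231 libraries, 3 Sh-NC and 3 Sh-YAP1, was analysed from the FPKM values that the authors deposited, 1 value with 2 decimals for each of 229420 transcript rows. Total RNA was used. The submitters' processing notes name HISAT2 2.0, Bowtie 0.12.2 and the build hg19, without roles. The quantification tool, annotation, filters and strandedness are not given in the sources used here. The study's methods point to a different series for these libraries, which were therefore matched by cell line, hairpin and replicate number. The values give no depth, so no counting error or detection limit could be computed.

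Rows sharing a gene identifier were summed. Of 60612 identifiers, 60401 matched a symbol. Positions are from GENCODE 29 on GRCh38, joined by identifier only. Values were log2(FPKM + 1). Genes averaging 0.5 FPKM or more (14770) and rows averaging 0.1 FPKM or more (77655) were fitted with limma 3.58.1 (lmFit, eBayes with trend) in R 4.3.3 with a single term for the hairpin, and p-values were adjusted by Benjamini-Hochberg over all features tested. Some genes that count in the lists are not reported here by name. The members and gene lists were chosen with earlier results of these data known.

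Named genes were all members, YAP1, list genes past an adjusted p of 0.05, the other inhibitors, up to 2 more for each list by absolute log2 fold change, and the 3 genes nearest to the member with the largest change; not all of them are described. Alternatives were the pseudocount (0.1, 0.01), quantile normalization, median centring, no trend, no filter, a gene minimum of 1 FPKM, a replicate block, leaving out single libraries, sums over rows averaging 0.1 FPKM or more, and sums without rows above 1 FPKM in a single library. Leaving out CDK4 rows, also from the ratios to the kinases, was added after seeing the data. Python 3.11.15 with pandas 2.3.3 and matplotlib 3.10.9 was used for the rest.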

Additional observations from a re-analysis of the deposited data

How the results depend on the processing

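Counts are of features past an adjusted p of 0.05 (limma, Benjamini-Hochberg). The 499 genes became 232 without the filter, 1 with the replicate number as a block (2779 at an unadjusted p under 0.05, 3241 without the block), and 78 to 171 with 1 library left out. After centring on the group means, libraries sharing a number had correlations over genes of -0.028, 0.062 and 0.004. Those with different numbers ran from -0.085 to 0.077, so shared numbers did not stand out. The labels do not say whether same-numbered libraries were paired, and with 3 libraries in each group these correlations cannot exclude it. The 3 members became 2 without the filter and without rows above 1 FPKM in a single library, 0 with the block (4 at an unadjusted p under 0.05, beside 18.8% of all genes) and 0 to 1 with 1 library left out (beside 0.528% to 1.16% of all genes). That 1 was CDK4, which passed in 13 of 16 alternatives but not with the block, without Sh-NC replicate 1 or without Sh-YAP1 replicate 2. CCND1 passed in 9 and CDK6 in 7 of 16. The 2 other G1/S genes became 3 with median centring, where CKS1B passed, 1 without the trend, 1 without rows above 1 FPKM in a single library, and 0 without the filter, with the block (7 unadjusted) and with any 1 library left out (6 to 9 unadjusted). The 1 DNA damage response gene became 0 without the filter, with the block and with any 1 library left out (4 to 6 unadjusted). The 0 S-phase genes stayed at 0 in 16 of 16 alternatives, with 3 to 4 at an unadjusted p under 0.05. The 40 transcript rows became 75 and 73 with pseudocounts of 0.1 and 0.01, 74 without the trend, 85 with the stricter filter, 0 with the block (3553 unadjusted), and 16 to 36 with 1 library left out. YAP1 kept its call in 16 of 16, from -3.17 to -2.56.

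CDK4 without rows 2 and 3 reversed to 0.34. Without 1 row it ran from -1.77 to -0.20. Over the 16 alternatives not built on CDK4 rows the log2 fold change of CDK4 ranged from -0.72 to -0.62, of CCND1 from -0.41 to -0.29 and of CDK6 from 0.49 to 0.71. Without rows above 1 FPKM in a single library, CCND2 turned from -0.12 to 0.28 and CDKN1A moved from -0.13 to -0.43. That setting removed row 2 of each, above 1 FPKM only in Sh-NC replicate 3 (CCND2) or Sh-YAP1 replicate 2 (CDKN1A). The other members kept their sign. The causes of the differences between libraries and groups were not tested, and unknown depth limits what can be said of low genes.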
